A study of Homo sapiens with 8 samples.

Results

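The genes described here are 10 genes of the actin filament, out of 12939 genes tested and 13068 genes listed in both deposited tables. They are the tropomyosins TPM1, TPM3 and TPM4, the filament turnover factors CAP1 and CFL1, the monomer-binding genes PFN1, TMSB4X and TMSB10, and the cytoplasmic actins ACTB and ACTG1. All were found by their gene symbol in both tables. TPM4 and CAP1 are among them because they had been seen to change with the NYNRIN hairpin in these libraries, so their values on that contrast are given as a description, without a test. RNA was measured in KG-1a cells, by their label, a long-established line from a human acute myeloid leukaemia, whose cell type is given as leukaemia stem cell. The cells were sorted by flow cytometry after lentiviral delivery of a short hairpin. The shNYNRIN cells carried a hairpin against NYNRIN, with the genotype given as a knockdown, and the shCTL cells carried a control hairpin, with the genotype given as WT. No drug or other agent is named for either group. There were 4 libraries of each group, in 2 tables with 2 libraries of each group, called set 1 (replicates 1 and 2) and set 2 (replicates 3 and 4). The number in the library name differs from the title for shCTL (titles 1, 2, 3 and 4 are library names 3, 4, 1 and 2). Set 1 therefore holds shNYNRIN libraries named 1 and 2 and shCTL libraries named 3 and 4, and set 2 holds shNYNRIN libraries named 3 and 4 and shCTL libraries named 1 and 2. Within a set the hairpin and that number cannot be told apart, and a difference between the sets in the effect of the hairpin is the same contrast as libraries named 3 or 4 against libraries named 1 or 2. Whether the number stands for a batch is not stated by the sources used here. The hairpin sequence, the number of hairpins, the time since transduction and the origin of the replicates are not stated in the sources used here, and p-values therefore measure only how far these libraries spread, possibly for technical reasons.

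Values of 7 libraries are read as FPKM (fragments scaled by exon length and by library size). shCTL replicate 3 was deposited as whole numbers, so its values are shown but were left out of the tests, and set 2 then rests on 1 shCTL library. The summed values per library were 307555 to 311536 in the 7 libraries with decimals, and the read depth of single libraries is unknown. NYNRIN was at 6.98 and 7.30 FPKM in shNYNRIN cells of set 1, against 12.2 and 12.5 FPKM in shCTL cells. Set 2 had it at 2.83 and 2.84 FPKM in shNYNRIN cells, against 10.4 FPKM in shCTL replicate 4 and a listed 10 in shCTL replicate 3. Of the markers taken for the labelled line, SPN was at 64.8 to 79.8 FPKM, CD33 at 18.8 to 24.8 FPKM and RUNX1 at 143 to 163 FPKM, but CD34, which defines KG-1a cells, was only at 0.681 to 1.79 FPKM. The label is therefore used here as given, with that marker against it. Among markers of other cell types, the platelet and megakaryocyte gene ITGA2B was at 518 to 589 FPKM and PPBP at 1.151 to 3.503 FPKM, while PF4 was not listed. The endothelial gene PECAM1 was at 29.997 to 36.5 FPKM and VWF at 1.57 to 2.46 FPKM. CDH5, also endothelial, was at 0.569 to 1.08 FPKM in the 3 libraries with decimals in which it was listed. In the 3 libraries with decimals in which they were listed, the smooth muscle gene DES was at 0.654 to 0.853 FPKM, ACTA2 at 0.135 to 0.506 FPKM, CNN1 at 0.0564 FPKM or less and MYH11 at 0, and the fibroblast gene COL1A1 was at 0.153 FPKM or less. The part of such cells in the results was not tested. In bulk RNA, fewer cells with a transcript and less of it per cell cannot be told apart.

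Actin monomers assemble into polar filaments that grow mainly at one end and disassemble toward the other, and leukaemic blood cells use them for shape, adhesion and migration. Profilin loads monomers with ATP and feeds them to growing ends, beta-thymosins hold monomers in reserve, cofilin severs older filaments, and the cyclase-associated protein CAP1 recycles cofilin-bound actin. Tropomyosins are coiled coils that lie along the filament and set which other proteins can bind it, with TPM1, TPM3 and TPM4 giving the short and long forms of non-muscle cells.

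ACTB was the most abundant of the 10, at a mean of 1480 FPKM over the 8 libraries, and it was followed by TMSB4X at 602.7 FPKM and PFN1 at 590.6 FPKM. TMSB10 averaged 431 FPKM, CFL1 396 FPKM, CAP1 298 FPKM, TPM4 227 FPKM and TPM3 129.7 FPKM. TPM1 averaged 14.4 FPKM and ACTG1 8.54 FPKM. FPKM are scaled by gene length, so these levels can be set side by side. Neighbours in this order whose ranges met over the 8 libraries were TMSB4X and PFN1, TMSB10 and CFL1, CAP1 and TPM4, and TPM1 and ACTG1. The 10 genes together summed to 4125 to 4307 FPKM in shNYNRIN libraries and to 4091 to 4140 FPKM in shCTL libraries, which was 1.32% to 1.40% of all values. CFL1 varied least, with its highest library 1.07 times its lowest, and CAP1 and ACTG1 varied most, at 1.42 and 2.14 times.

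**Figure D1:**
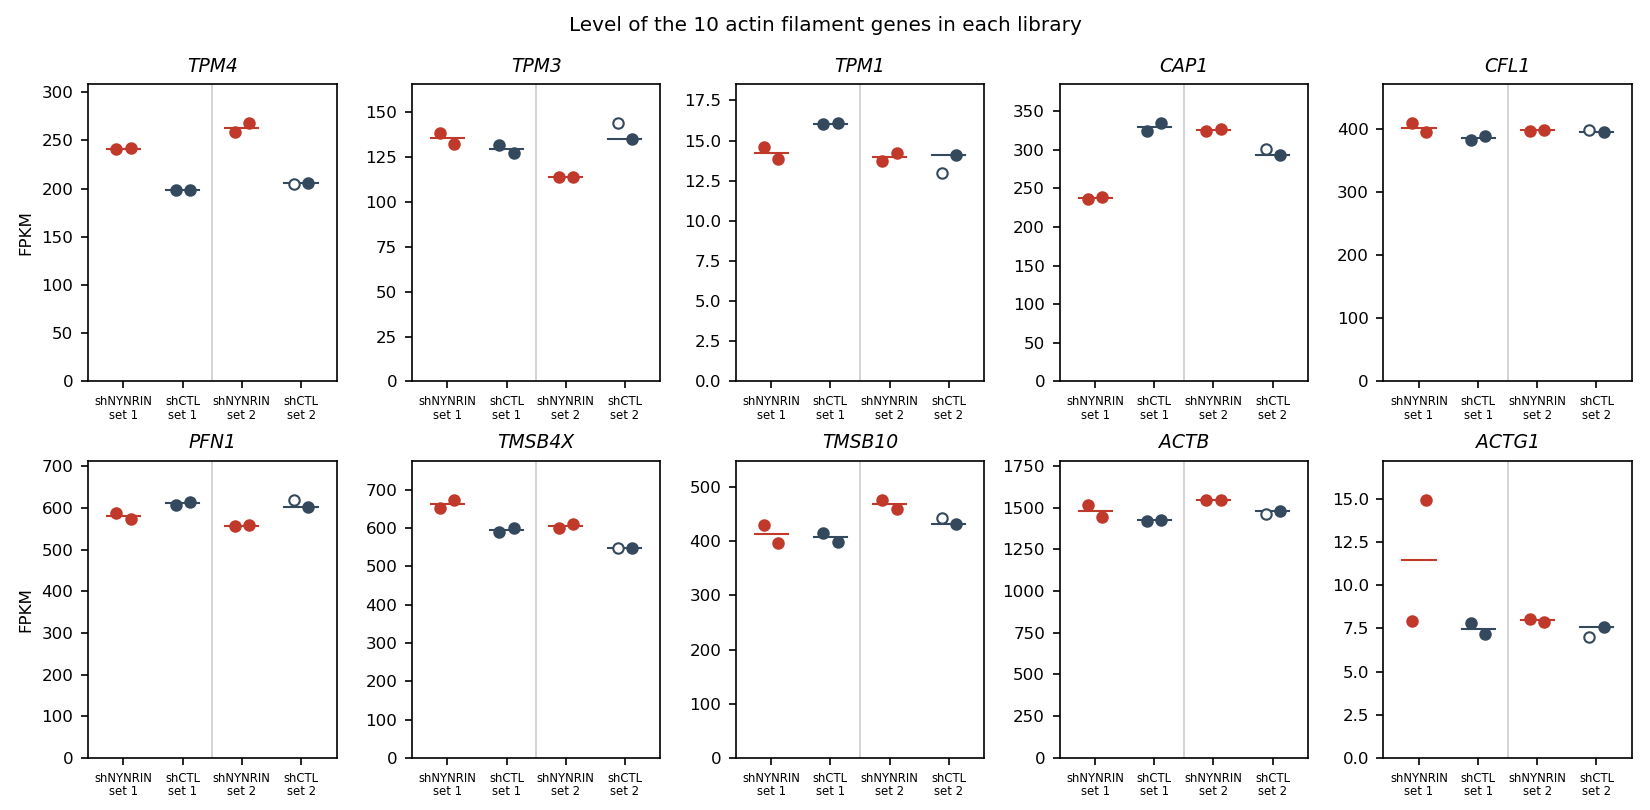
Level of each gene in FPKM (vertical axes, from 0) in every library, with shNYNRIN in red and shCTL in dark blue, set 1 on the left of each panel and set 2 on the right. Each point is 1 library, bars are means of the libraries with decimals, and open points are shCTL replicate 3. TPM4 is higher in shNYNRIN cells in both sets, whereas CAP1 is lower in set 1 (236 and 239.6 FPKM against 325 and 335 FPKM) and higher in set 2.

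Promoter windows were available for 9 of the 10 genes, as 14 windows running from 250 bases before to 50 bases after a start site (RefSeq, GRCh38.p14). Shown are the windows that held a CArG box and, beside them, 1 window each of TPM3, CAP1 and TMSB4X, which held none; they were picked with the result of the search known. The CArG box, the element that serum response factor is known to bind in many actin genes, was searched on both strands and was held by 454 of 35116 promoter windows of this length, or 1.29%. Among the 14 windows it stood in the first of the 3 windows of TPM4 (chr19:16067288-16067587, plus strand), 173 to 164 bases before the start, and in the window of ACTG1 (chr17:81512750-81513049, minus strand), 94 to 85 bases before the start. It was not in the windows of TPM3, of which the first of 2 is shown (chr1:154183169-154183468, minus strand), nor in those of CAP1, of which the second of 3 is shown (chr1:40040479-40040778, plus strand), nor in that of TMSB4X (chrX:12974860-12975159, plus strand). Capitals mark the CArG box, and each sequence runs 5′ to 3′ along its gene.
TPM4: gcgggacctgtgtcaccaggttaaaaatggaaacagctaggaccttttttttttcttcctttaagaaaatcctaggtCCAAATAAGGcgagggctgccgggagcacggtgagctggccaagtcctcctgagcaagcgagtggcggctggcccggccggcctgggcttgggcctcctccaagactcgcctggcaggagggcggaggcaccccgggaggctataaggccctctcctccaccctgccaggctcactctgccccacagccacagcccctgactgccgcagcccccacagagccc
ACTG1: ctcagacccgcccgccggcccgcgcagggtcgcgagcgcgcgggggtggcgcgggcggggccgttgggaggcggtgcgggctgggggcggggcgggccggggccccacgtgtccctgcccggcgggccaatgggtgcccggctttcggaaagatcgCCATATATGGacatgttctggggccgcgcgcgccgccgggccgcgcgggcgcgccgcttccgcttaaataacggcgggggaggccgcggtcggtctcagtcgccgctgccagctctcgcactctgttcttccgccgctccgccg
TPM3: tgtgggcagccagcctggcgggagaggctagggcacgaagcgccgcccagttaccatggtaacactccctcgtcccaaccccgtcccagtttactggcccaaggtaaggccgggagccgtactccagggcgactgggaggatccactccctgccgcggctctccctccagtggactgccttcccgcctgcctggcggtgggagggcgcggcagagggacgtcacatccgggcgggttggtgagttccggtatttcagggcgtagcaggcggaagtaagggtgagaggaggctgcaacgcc
CAP1: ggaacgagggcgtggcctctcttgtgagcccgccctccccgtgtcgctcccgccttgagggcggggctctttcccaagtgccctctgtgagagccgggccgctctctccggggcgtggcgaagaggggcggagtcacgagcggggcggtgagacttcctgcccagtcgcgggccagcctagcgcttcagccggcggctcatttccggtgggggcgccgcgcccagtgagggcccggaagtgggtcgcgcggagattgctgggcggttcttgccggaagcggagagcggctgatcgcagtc
TMSB4X: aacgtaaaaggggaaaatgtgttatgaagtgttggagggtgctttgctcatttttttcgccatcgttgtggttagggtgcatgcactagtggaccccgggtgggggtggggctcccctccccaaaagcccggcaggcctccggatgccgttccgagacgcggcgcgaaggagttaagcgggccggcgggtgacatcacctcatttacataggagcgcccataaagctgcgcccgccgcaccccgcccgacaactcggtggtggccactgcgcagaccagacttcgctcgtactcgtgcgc
The 14 windows were 48.3% to 78.3% G and C, against a median of 58.7% over all windows. The other motifs searched on both strands were more common. GGGCGG stood in 44.95% of all windows. CCAAT, in 34.61% of all windows, stood in the windows of CFL1 and ACTG1 and in the third of CAP1, and CATTCC, in 14.03%, stood in that of PFN1. TATAAA (11.53%) and TGACGTCA (1.85%) were in none of the 14. A match is a description of letters, and the deposited values are per gene, so they do not tell which TPM4 or CAP1 start was used.

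Across both sets none of the 8 genes that were tested on the hairpin contrast passed an adjusted p of 0.05 in limma (0 of 8, with 2 at an unadjusted p under 0.05), where 41 of all 12939 genes passed, or 0.317%. Within set 1, 2 of 8 passed, 1 higher and 1 lower, against 15.9% of all genes (9.33% higher and 6.61% lower). Within set 2, 3 of 8 passed, 1 higher and 2 lower, against 20.3% of all genes (11.6% higher and 8.71% lower). Neither these shares of all genes nor those given below are matched for level. Among genes of at least 10 FPKM in mean, 3 of 7 passed in each set, beside 2055 of 5880 genes in set 1 and 2251 in set 2. The median log2 fold change of the 8 was 0.05 over both sets, 0.06 in set 1 and 0.03 in set 2, beside 0.02, 0.03 and 0.02 over all genes. Over all 8 libraries, the shNYNRIN and shCTL values did not overlap for TPM4 and ACTG1 (higher in shNYNRIN cells) and for PFN1 (lower), which was 3 of 10 genes against 12.9% of all genes (9.76% higher and 3.13% lower). TPM4 had been chosen for that contrast. The whole numbers of shCTL replicate 3 lay a median of -0.5003 from shCTL replicate 4 among genes of 10 to 30 FPKM, and the part of this in the count was not tested. For ACTG1 (7.87 FPKM in the lowest shNYNRIN library, against a listed 7 in that shCTL library) the separation is uncertain. With 2 libraries of each group, the values did not overlap within set 1 for 6 of the 10 genes as higher and 3 as lower. The same held within set 2 for 6 as higher and 2 as lower. The share over all genes within a set was not counted, so groups that are apart within a set do not mark out a gene. These counts rest on few libraries: the 41 genes became 0 with a block by the number in the library name and when any 1 library other than shCTL replicate 4 was left out, and 2065, with 2 of the 8 genes, without shCTL replicate 4, which leaves set 1 alone for the contrast. The 2 genes of set 1 became 0 without shCTL replicate 1 and 1 without shCTL replicate 2 or shNYNRIN replicate 2, 3 or 4, and under upper-quartile scaling 1 was higher and 2 were lower. The 3 genes of set 2 became 1 without shNYNRIN replicate 3 or 4.

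TPM4, the tropomyosin of highest level here (GRCh38 chr19:16067021-16103005, plus strand, GENCODE 29), was at 241 and 242 FPKM in shNYNRIN cells of set 1, against 199 and 199 FPKM in shCTL cells. Its set 2 values were 259 and 268 FPKM in shNYNRIN cells, against 206 FPKM in shCTL replicate 4 and a listed 205 in shCTL replicate 3. Every shNYNRIN library was above every shCTL library, in both sets. The log2 fold change was 0.28 ± 0.03 (SE) in set 1, 0.35 ± 0.03 in set 2 and 0.31 ± 0.03 over both sets, a 1.24-fold higher level. These values chose the gene and carry no test.

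TPM3, the next tropomyosin (chr1:154155304-154194648, minus strand), fell in set 2. It was at 113.9 and 113.7 FPKM in shNYNRIN cells there, against 135 FPKM in shCTL replicate 4 and a listed 144 in shCTL replicate 3. The log2 fold change was -0.25 ± 0.04 (limma adjusted p = 0.00672). In set 1 it was at 139 and 133 FPKM in shNYNRIN cells, against 132 and 128 FPKM in shCTL cells, a log2 fold change of 0.07 ± 0.03 (limma adjusted p = 0.207). The effect on TPM3 was lower in set 2 than in set 1 by a log2 difference of -0.31 ± 0.05 (limma adjusted p = 0.00746), and both that difference and the fall in set 2 passed in each of the 13 alternative settings in which they could be computed. By library name, the 4 libraries numbered 1 or 2 lay at 132.7 to 144 FPKM and the 4 numbered 3 or 4 at 113.7 to 131.7 FPKM, whichever the hairpin, so the hairpin and that number cannot be told apart for TPM3.

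TPM1, a tropomyosin of low level here, was at 14.6 and 13.9 FPKM in shNYNRIN cells of set 1, against 16.02 and 16.08 FPKM in shCTL cells. In set 2 it was at 13.7 and 14.2 FPKM in shNYNRIN cells, against 14.1 FPKM in shCTL replicate 4 and a listed 13 in shCTL replicate 3. It fell in set 1, with a log2 fold change of -0.16 ± 0.04 (limma adjusted p = 0.0494), and had -0.01 ± 0.05 in set 2 (limma adjusted p = 0.898). The set 1 call lay at the threshold and was lost in 9 of 15 alternatives, among them the omission of any 1 of 6 libraries, with adjusted p between 0.0231 and 0.174.

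The make-up of the RNA of these 3 tropomyosins followed from these levels. A further tropomyosin gene, TPM2, at a mean of 17.7 FPKM over the 7 libraries, is not part of the shares. TPM4 held 61.1%, 62.3%, 67.0% and 67.7% of the summed FPKM of the 3 genes in shNYNRIN replicates 1 to 4, against 57.4%, 58.0%, 56.6% and 58.0% in shCTL replicates 1 to 4. The ratio of TPM4 to TPM3 was 1.74, 1.82, 2.27 and 2.35 in shNYNRIN cells, against 1.51, 1.56, 1.42 and 1.52 in shCTL cells. The shCTL libraries of both sets lay close together, and the shNYNRIN libraries of set 2 lay highest. Part of that height comes from the lower TPM3 there, at 113.9 and 113.7 FPKM. For TPM3 the hairpin and the number in the library name cannot be told apart. Since TPM4 was chosen for its change, these shares are a description. They also rest on the gene lengths used, which are not stated.

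**Figure D2:**
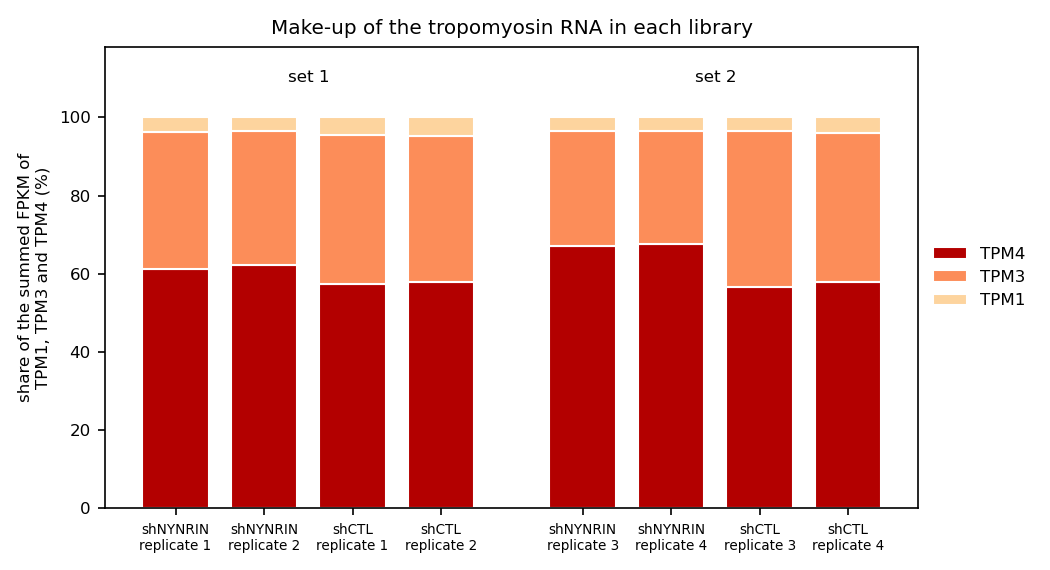
Share of the summed FPKM of TPM1, TPM3 and TPM4 held by each gene (vertical axis, percent) in each library, with shNYNRIN to the left of shCTL within each set. The TPM4 part reaches 67.0% and 67.7% in shNYNRIN replicates 3 and 4 and stays between 56.6% and 58.0% in the shCTL libraries. TPM3 is lowest in shNYNRIN replicates 3 and 4, and for it the hairpin and the number in the library name cannot be told apart.

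CAP1, the cyclase-associated protein that recycles actin (chr1:40040233-40072649, plus strand), differed in sign between the sets. In set 1 it was at 236 and 239.6 FPKM in shNYNRIN cells, against 325 and 335 FPKM in shCTL cells. Set 2 had it at 324 and 327 FPKM in shNYNRIN cells, against 293 FPKM in shCTL replicate 4 and a listed 301 in shCTL replicate 3. The 2 shNYNRIN libraries of set 1 were the lowest of all, and the groups were apart within each set, in opposite directions. The log2 fold change was -0.47 ± 0.03 in set 1 and 0.15 ± 0.03 in set 2, a difference of 0.62 ± 0.04, again with no test because CAP1 was chosen on this contrast. By the number in the library name, the 4 libraries named 3 or 4 lay at 324 to 335 FPKM in both groups, and the 4 named 1 or 2 lay lower, at 236 and 239.6 FPKM in shNYNRIN cells and 301 and 293 FPKM in shCTL cells.

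CFL1, the cofilin that CAP1 works with (chr11:65823022-65862026, minus strand), was close to level. It was at 409.7, 395, 398 and 399 FPKM in shNYNRIN replicates 1 to 4, against 382, 389.8, 399 (listed) and 396 FPKM in shCTL replicates 1 to 4. Its log2 fold change was 0.06 ± 0.03 in set 1 (limma adjusted p = 0.168) and 0.01 ± 0.03 in set 2 (limma adjusted p = 0.908). The ratio of CAP1 to CFL1 was therefore 0.576 and 0.606 in shNYNRIN cells of set 1, against 0.850 and 0.858 in shCTL cells, and 0.815 and 0.819 in shNYNRIN cells of set 2, against 0.754 and 0.740 in shCTL cells.

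PFN1, the profilin of blood cells (chr17:4945652-4949061, minus strand), was at 589 and 573 FPKM in shNYNRIN cells of set 1, against 608 and 615 FPKM in shCTL cells. Its set 2 values were 556 and 559.7 FPKM in shNYNRIN cells, against 604 FPKM in shCTL replicate 4 and a listed 620 in shCTL replicate 3. All 4 shNYNRIN libraries lay below all 4 shCTL libraries, as they did for 3.13% of all genes. PFN1 fell in set 2, with a log2 fold change of -0.11 ± 0.03 (limma adjusted p = 0.0356), and had -0.07 ± 0.02 in set 1 (limma adjusted p = 0.0778) and -0.09 ± 0.03 over both sets (limma adjusted p = 0.181). The set 2 call was lost without shCTL replicate 1, shCTL replicate 2, shNYNRIN replicate 3 or shNYNRIN replicate 4 and under quantile normalization, with adjusted p between 0.00135 and 1 over the alternatives.

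TMSB4X, the main beta-thymosin (chrX:12975108-12977227, plus strand), was the only 1 of the 8 that passed in both sets. It was at 652 and 674 FPKM in shNYNRIN cells of set 1, against 589 and 599.8 FPKM in shCTL cells. In set 2 it was at 599 and 611 FPKM in shNYNRIN cells, against 548 FPKM in shCTL replicate 4 and a listed 549 in shCTL replicate 3. The groups were apart within each set but met across the sets, since all set 2 values were lower than their set 1 counterparts. The log2 fold change was 0.16 ± 0.03 in set 1 (limma adjusted p = 0.0122) and 0.14 ± 0.03 in set 2 (limma adjusted p = 0.0230), and their difference was -0.01 ± 0.04 (limma adjusted p = 0.851). Over both sets, in the model with 1 common effect, it was 0.15 ± 0.03 and did not pass (limma adjusted p = 0.0796). The set 1 call was lost without shCTL replicate 1 and with a block by the number in the title, and the set 2 call without shNYNRIN replicate 3 or 4 and under quantile normalization.

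TMSB10, its close relative, was at 431 and 396 FPKM in shNYNRIN cells of set 1, against 415 and 399 FPKM in shCTL cells. Set 2 had it at 476 and 459.8 FPKM in shNYNRIN cells, against 431 FPKM in shCTL replicate 4 and a listed 443 in shCTL replicate 3. The groups met in set 1 and were apart in set 2. Its log2 fold change was 0.02 ± 0.04 in set 1 (limma adjusted p = 0.787) and 0.12 ± 0.05 in set 2 (limma adjusted p = 0.173).

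ACTB, the beta-actin gene (chr7:5527147-5563784, minus strand), was at 1518 and 1444 FPKM in shNYNRIN cells of set 1, against 1418 and 1428 FPKM in shCTL cells. Its set 2 values were 1543 and 1547 FPKM in shNYNRIN cells, against 1480.5 FPKM in shCTL replicate 4 and a listed 1459 in shCTL replicate 3. The shNYNRIN libraries were higher within each set by a log2 fold change of 0.06 ± 0.03 in both, and neither passed (limma adjusted p = 0.201 and 0.251), but under quantile normalization the set 2 value was 0.11 and passed (limma adjusted p = 0.00518).

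ACTG1, the gamma-actin gene (chr17:81509971-81523847, minus strand), was at 7.92 and 14.95 FPKM in shNYNRIN cells of set 1, against 7.82 and 7.16 FPKM in shCTL cells. In set 2 it was at 8.07 and 7.87 FPKM in shNYNRIN cells, against 7.56 FPKM in shCTL replicate 4 and a listed 7 in shCTL replicate 3. Apart from shNYNRIN replicate 2, the libraries lay between 7 and 8.07 FPKM. The set 1 log2 fold change of 0.49 ± 0.23 did not pass (limma adjusted p = 0.197), and it was 0.07 without shNYNRIN replicate 2 and 0.91 without shNYNRIN replicate 1, where it passed (limma adjusted p = 0.00577). ACTG1 made up 0.477% to 1.02% of the summed FPKM of both actin genes, although gamma-actin is known as an abundant actin of non-muscle cells, and the authors' deposited table gives it a mean count of 912 beside 143897 for ACTB.

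**Figure D3:**
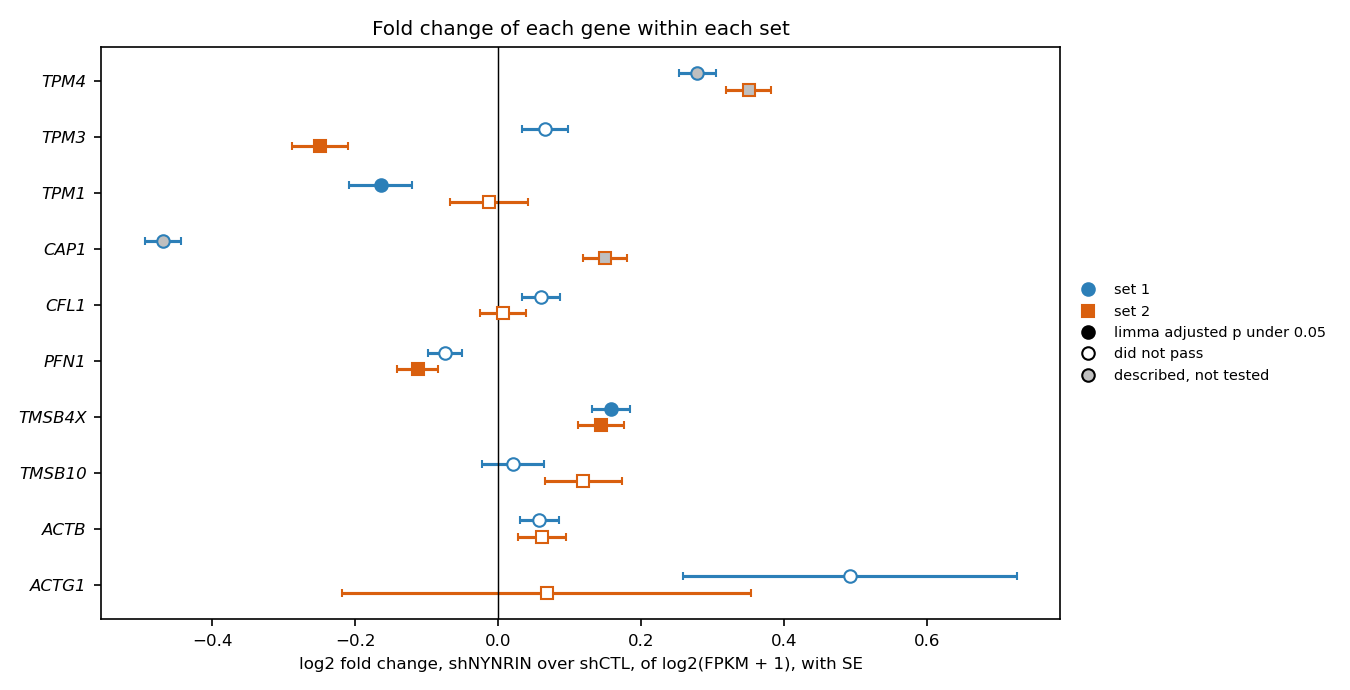
Log2 fold change of shNYNRIN over shCTL (horizontal axis, of log2(FPKM + 1)) for each gene in set 1 (circles) and set 2 (squares), with its SE. Filled symbols passed in limma, open ones did not, and grey ones were described without a test. TPM3 (0.07 and -0.25) and CAP1 (-0.47 and 0.15) lie on both sides of 0.

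The 2 sets were also compared in level, averaged over the hairpins. Set 2 over set 1, 3 of 10 passed in limma, 2 higher and 1 lower, against 11.7% of all genes (5.79% higher and 5.95% lower). CAP1 and TPM4 were among the 3 and had been chosen for their change in these libraries, so the count is a description. Of the other 8 genes only TMSB4X passed. CAP1 had an average of 0.14 ± 0.02, which hides opposite directions. Its shNYNRIN values were 324 and 327 FPKM in set 2, against 236 and 239.6 FPKM in set 1, and its shCTL values 293 and a listed 301 in set 2, against 325 and 335 FPKM in set 1. That average rests on the low shNYNRIN libraries of set 1, for which CAP1 was chosen, and is a description. TPM4 was higher by 0.09 ± 0.02, also a description, since TPM4 was chosen for its change in these libraries. TMSB4X had -0.12 ± 0.02 (limma adjusted p = 0.0138). TPM4 left the count in 7 of 13 alternatives, among them the omission of any 1 library other than shCTL replicate 4. The TMSB4X call was lost without shNYNRIN replicate 3 or under quantile normalization. Without shNYNRIN replicate 1 the count was 5 of 10, and without shNYNRIN replicate 3 it was 1 of 10. For the effect of the hairpin, 1 of 8 genes differed between the sets (TPM3), against 20.4% of all genes, and ACTG1 joined it without shNYNRIN replicate 1, making 2. What separates the sets is not stated by the sources used here.

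The genes whose pattern was most like that of TPM4 over the 7 libraries, among 5880 genes of at least 10 FPKM in mean, were OXR1, CMPK1, BCL2L12, ERMP1 and ERG28, with a Pearson r of log2 values between 0.985 and 0.988. CMPK1, a nucleotide kinase, was at 132, 138, 139 and 143 FPKM in shNYNRIN replicates 1 to 4, against 116, 115 and 117.8 FPKM in shCTL replicates 1, 2 and 4. ERMP1 was at 45.1, 45.5, 51.2 and 50.4 FPKM in shNYNRIN cells, against 38.6, 38.1 and 38.4 FPKM in shCTL cells. Like TPM4, both were higher in every shNYNRIN library than in any shCTL library and highest in set 2. The genes most like CAP1 were EIF1, CCNI, RNF130, SSBP4 and WARS1, with r between 0.989 and 0.998. EIF1, which encodes a factor for start codon selection in translation, was at 269, 274, 325 and 329 FPKM in shNYNRIN replicates 1 to 4, against 326, 329 and 306 FPKM in shCTL replicates 1, 2 and 4. WARS1, the cytosolic tryptophanyl-tRNA synthetase, was at 31.6, 31.2, 41.6 and 41.5 FPKM in shNYNRIN cells, against 42.5, 42.2 and 39.5 FPKM in shCTL cells. Both were lowest in shNYNRIN replicates 1 and 2 and next lowest in the shCTL libraries of set 2 (a listed 299 for EIF1 and 39 for WARS1 in shCTL replicate 3), the order by library name that CAP1 had. These r values share the same 7 libraries and describe likeness of pattern. The genes were picked by r over these libraries, so the orders they share with TPM4 and CAP1 follow from that choice.

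**Figure D4:**
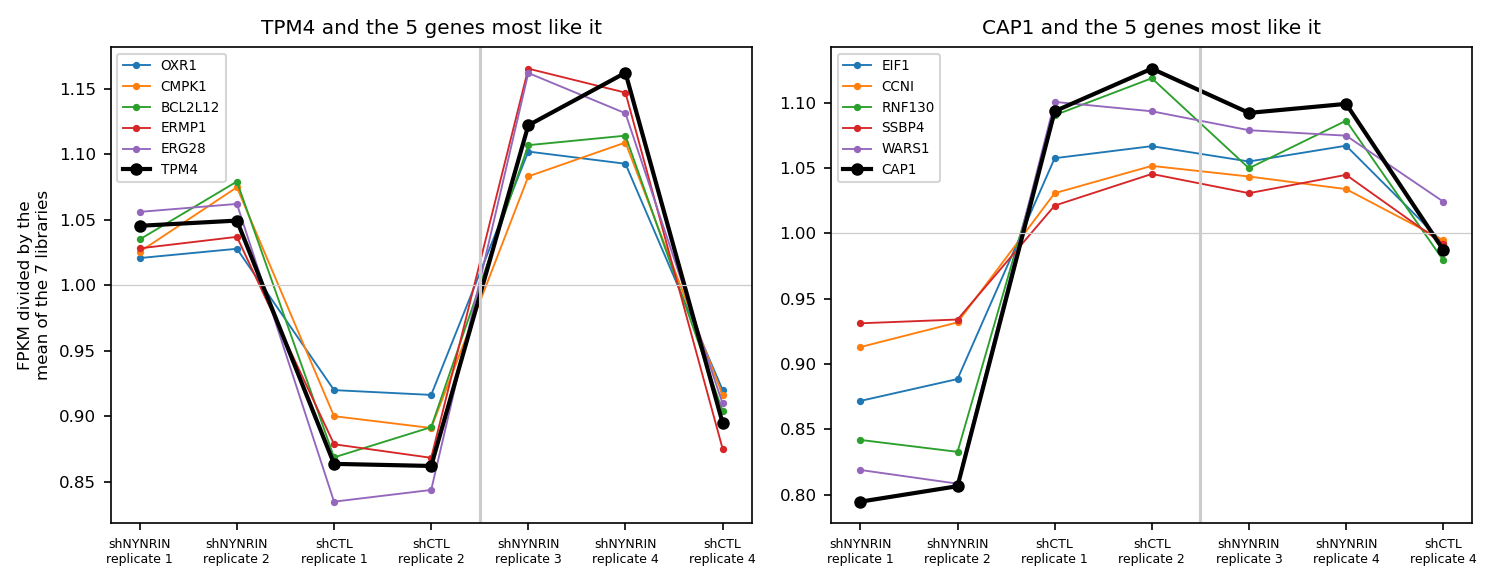
FPKM of TPM4 (left) and CAP1 (right, black lines) and of the 5 genes most like each (coloured lines), divided by the gene's mean over the 7 libraries, in each library (horizontal axis). The lines join libraries for the eye, and the grey vertical line parts set 1 from set 2. CAP1 and its 5 genes are lowest in shNYNRIN replicates 1 and 2.

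Beyond the 10 genes, 108 genes of the actin machinery in 13 lists were followed, of which 91 were tested. In set 1, 12 rose and 3 fell, or 16.5% of the 91 against 15.9% of all genes. In set 2, 19 rose and 10 fell, or 31.9% against 20.3% of all genes. Over both sets 1 rose, RHOC, or 1.1% against 0.317%. The effect differed between the sets for 29 of the 91, or 31.9% against 20.4% of all genes. These shares are not matched for level. Among genes of at least 10 FPKM in mean, 22 of 68 listed genes passed in set 1, beside 2055 of 5880 genes. At that level 34 of 68 passed in set 2, beside 2251 of 5880, and 29 of 68 differed between the sets, beside 2345 of 5880. The median log2 fold change of the 91 was 0.05 in set 1 and 0.06 in set 2, beside 0.03 and 0.02 over all genes. Under upper-quartile scaling 7 rose and 6 fell in set 1, and with a block by the number in the title 3 of the 91 passed there. The 15 calls of set 1 became 2 to 3 without an shCTL library of that set and 9 without shNYNRIN replicate 1, 3 or 4. The 29 calls of set 2 became 15 without shNYNRIN replicate 3 and 17 without shNYNRIN replicate 4, and the 29 differences between sets became 14 to 17 without any 1 of shNYNRIN replicates 3 and 4 and the shCTL libraries of set 1. ADD1, EZR and RHOC passed in both sets with the same sign, and RAC1 and WASF2 (0.13 in set 1 and -0.27 in set 2) with opposite signs.

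Among the partners of tropomyosin and cofilin, TMOD3, which caps the slow end of tropomyosin-coated filaments, was the 1 gene of 3 tested that rose in set 1 (log2 fold change 0.32 ± 0.06, limma adjusted p = 0.0171), and none of the 3 passed in set 2. Of 11 cofilin pathway genes, 3 rose in set 1 and none passed in set 2. They included CFL2, the muscle-type cofilin, at 3.47 and 4.20 FPKM in shNYNRIN cells against 2.48 and 2.50 FPKM in shCTL cells (0.47 ± 0.09, limma adjusted p = 0.0189), and LIMK1, the kinase that inactivates cofilin (0.31 ± 0.07, limma adjusted p = 0.0328). The calls of TMOD3, CFL2 and LIMK1 were each lost when either shCTL library of set 1 or shNYNRIN replicate 2 was left out, and that of LIMK1 also without shNYNRIN replicate 1. Of the profilin and thymosin relatives neither of 2 passed, and TMSB15A had 0.41 ± 0.13 in set 1 (limma adjusted p = 0.0764). None of the muscle and smooth muscle actins, 4 genes, was tested, since testing asked for a gene to be listed in both sets and to pass the filter on level. ACTA2 was listed only in set 2.

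Among the genes that start new filaments, the Arp2/3 complex, which nucleates branches, had none of 9 subunits past the threshold in set 1 and 2 that fell in set 2. ACTR2 was at 306 and 311 FPKM in shNYNRIN cells of set 2, against 358 FPKM in shCTL replicate 4 (-0.22 ± 0.04, limma adjusted p = 0.0118), and ARPC3 had -0.13 ± 0.03 (limma adjusted p = 0.0220). Both calls were lost without shNYNRIN replicate 3 or under quantile normalization, and that of ARPC3 also without shNYNRIN replicate 4. Of 12 WASP and WAVE factors, which switch that complex on, 1 rose and 2 fell in set 1, and 4 rose and 1 fell in set 2. ABI1 fell in set 1 (-0.23 ± 0.04, limma adjusted p = 0.0184), as did NCKAP1L (-0.14 ± 0.04, limma adjusted p = 0.0425). Both calls were lost without shCTL replicate 1 or 2, and that of NCKAP1L also without any 1 shNYNRIN library. In set 2 WIPF1, the partner that stabilises WASP, was at 64.9 and 69.7 FPKM in shNYNRIN cells, against 49.4 FPKM in shCTL replicate 4 (0.44 ± 0.06, limma adjusted p = 0.00373), and CYFIP2 rose by 0.32 ± 0.04 (limma adjusted p = 0.00363). Of 10 formin and Ena/VASP genes, FHOD1 rose in set 1 (0.16 ± 0.04, limma adjusted p = 0.0295), and in set 2 DIAPH1 rose (0.16 ± 0.04, limma adjusted p = 0.0314) and INF2 fell (-0.30 ± 0.06, limma adjusted p = 0.0172). The DIAPH1 and INF2 calls were lost without shNYNRIN replicate 3 or 4, and the FHOD1 call without shCTL replicate 1 or 2, or any 1 of shNYNRIN replicates 2 to 4, under upper-quartile scaling and with shCTL replicate 3 as deposited.

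Of 7 capping and severing genes, ADD1 rose in both sets (0.14 ± 0.03, limma adjusted p = 0.0255, and 0.32 ± 0.04, limma adjusted p = 0.00230), and 3 rose and 1 fell in set 2. CAPG, a gelsolin relative that caps fast ends in myeloid cells, was at 16.2 and 16.9 FPKM in shNYNRIN cells of set 2, against 8.57 FPKM in shCTL replicate 4 (0.87 ± 0.07, limma adjusted p = 0.000634). In set 1 it was at 12.9 and 12.3 FPKM in shNYNRIN cells, against 13.5 and 14.7 FPKM in shCTL cells (-0.15 ± 0.05, limma adjusted p = 0.112). ADD3 rose in set 2 as well (0.50 ± 0.09, limma adjusted p = 0.0134), but not without shNYNRIN replicate 3 or 4. The ADD1 call of set 1 was lost without any 1 of the 6 libraries other than shCTL replicate 4 and under upper-quartile scaling. Of 11 bundling genes, 1 rose in set 1 (PLS3, 0.19 ± 0.04, limma adjusted p = 0.0312), and 4 rose and 1 fell in set 2. LCP1, the plastin of white blood cells, was at 60.9 and 61.2 FPKM in shNYNRIN cells of set 2, against 40.3 FPKM in shCTL replicate 4 (0.59 ± 0.04, limma adjusted p = 0.000426), and at 41.4 and 42.5 FPKM in shNYNRIN cells of set 1, against 41.7 and 42.1 FPKM in shCTL cells. The PLS3 call was lost without shCTL replicate 1 or 2, or shNYNRIN replicate 1, 3 or 4, and under quantile normalization or upper-quartile scaling.

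Of 6 membrane linkers, EZR, which ties filaments to the membrane, rose in both sets (0.31 ± 0.06, limma adjusted p = 0.0189, and 0.44 ± 0.07, limma adjusted p = 0.00859). Its relative MSN, of far higher level, fell in set 1 to 229 and 222 FPKM in shNYNRIN cells, against 256 and 257 FPKM in shCTL cells (-0.19 ± 0.03, limma adjusted p = 0.00884). The set 1 calls of EZR and MSN were lost without shCTL replicate 1 or 2, and that of EZR also without shNYNRIN replicate 1. TLN1 rose in set 2 (0.29 ± 0.03, limma adjusted p = 0.00286). Of 5 non-muscle myosin II genes none passed in set 1, and 2 rose and 2 fell in set 2. The heavy chain MYH9 was at 106 and 102 FPKM in shNYNRIN cells of set 2, against 144 FPKM in shCTL replicate 4 (-0.47 ± 0.04, limma adjusted p = 0.00104), while the light chain MYL12A rose (0.28 ± 0.05, limma adjusted p = 0.00871).

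RAC1, a GTPase that signals to the filament, had the largest fold change of the 91 in set 1 and the most negative in set 2. It was at 45.97 and 44.95 FPKM in shNYNRIN cells of set 1, against 26.9 and 29.2 FPKM in shCTL cells (0.68 ± 0.05, limma adjusted p = 0.000835), and at 27.1 and 26.5 FPKM in shNYNRIN cells of set 2, against 46.2 FPKM in shCTL replicate 4 and a listed 45 in shCTL replicate 3 (-0.76 ± 0.06, limma adjusted p = 0.000579). By library name, the libraries numbered 1 or 2 lay at 44.95 to 46.2 FPKM and those numbered 3 or 4 at 26.5 to 29.2 FPKM, whichever the hairpin. RHOC rose in both sets (0.34 ± 0.04, limma adjusted p = 0.00363, and 0.31 ± 0.04, limma adjusted p = 0.00503) and over both (0.33, limma adjusted p = 0.0479), where the call was lost without any 1 library other than shCTL replicate 4, under quantile normalization (limma adjusted p = 0.0542) and with a block by the number in the library name (0.235) or in the title (0.423). Of 5 genes for serum response factor and its co-activators, which drive many actin genes, ELK4 rose in set 1 (0.29 ± 0.06, limma adjusted p = 0.0208). None passed in set 2, where ELK4 went the other way, at -0.25 ± 0.07. The ELK4 call was lost without shCTL replicate 1 or 2 or shNYNRIN replicate 2.

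**Figure D5:**
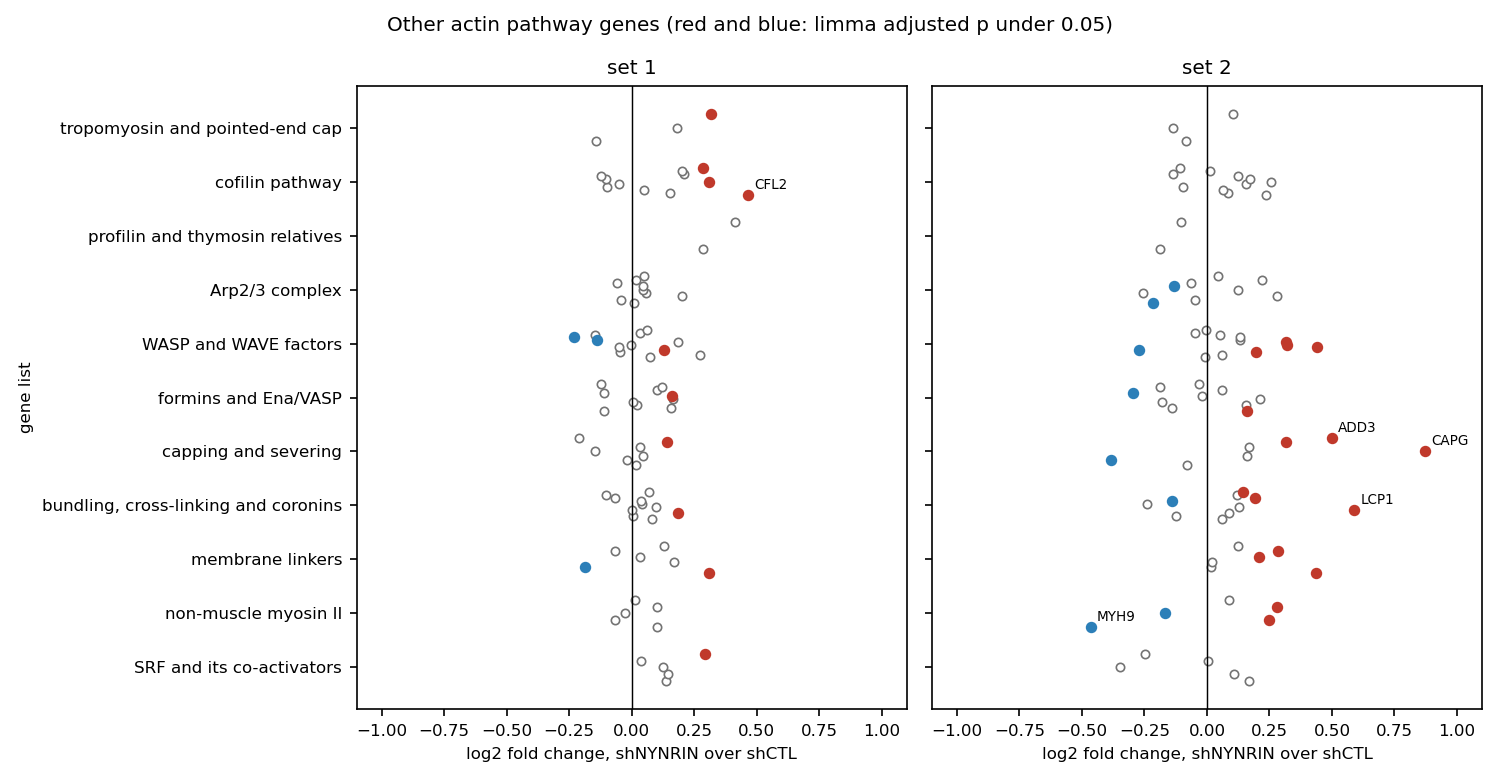
Log2 fold change of shNYNRIN over shCTL (horizontal axes) in set 1 (left) and set 2 (right) for 80 tested genes of 11 lists (vertical axis; each point is 1 gene). Red and blue points passed in limma as higher and lower in shNYNRIN cells, and open points did not. CAPG lies at -0.15 in set 1 and 0.87 in set 2.

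The authors' deposited table gives its own comparison of the set 1 libraries. In the authors' deposited table TMSB4X had a log2 fold change of 0.13 (q = 3.19e-05), PFN1 -0.10 (q = 0.00417) and TPM1 -0.20 (q = 0.0113). The authors' deposited table lists TPM4 at 0.25 and CAP1 at -0.50, for which no test is repeated here. In the authors' deposited table TPM3, CFL1, ACTB, ACTG1 and TMSB10 had q-values of 0.408 to 0.945.

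Near-identical copies limit how far reads can be given to 1 gene. Of the 50-base words of its principal transcript (GENCODE 29), 22.9% for TPM4 stood also in a gene elsewhere, mostly AC098614.1 (18.8%). The share was 11.1% for TMSB4X, 10.3% for ACTB, 8.9% for PFN1, 7.3% for TPM3 and 5.5% for CAP1, and at most 3.6% for the other 4. The copy TMSB4XP8 was listed at 27.8 to 41.4 FPKM, without order by group. The listed copies of ACTG1 summed to as much as 40.1% of the ACTG1 value in set 2, so its level is uncertain.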

How the data were processed

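RNA of sorted cells labelled KG-1a was made into libraries with the SMART-Seq v4 kit and sequenced on Illumina instruments, per the labels' protocols. Bowtie 0.12.9, Cufflinks 2.1.1 and HTSeq, and the builds hg38 and mm10 without a role, are named in the submitters' processing notes. Alignment settings, annotation and strandedness are not stated by the sources used here. The authors deposited values read as FPKM, since no header names a unit. That reading rests on Cufflinks among the tools and on the authors' mean normalized count (a signal per gene, deposited beside the FPKM of set 1), whose ratio to the FPKM rose with exon length (Spearman 0.867 over 8064 genes of at least 5 in value, a description across genes, which are not independent). The authors deposited whole numbers for shCTL replicate 3, which were treated as a score. Between 10 and 30 FPKM it lay a median of -0.5003 from shCTL replicate 4, over 3537 genes. The value 0.001 stands for 0 in set 1, whose file also holds the authors' log2 fold change, p-value and q-value, from a program not stated by the sources used here.

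The log2(FPKM + 1) values went into limma 3.58.1 (R 4.3.3) with its trend option, after a filter that asked for 1 FPKM in 2 libraries. Tests were two-sided, adjusted by Benjamini and Hochberg over 12939 genes, at 0.05. The fit over both sets had additive terms for group and set, leaving 4 residual degrees of freedom. Effects within a set, their difference and the level difference between the sets came from a fit with an interaction, leaving 3, and the lone shCTL library of set 2 was assumed to vary like the others. Fold changes on this scale understate the change of low genes. All 10 genes passed the filter. Scripts were tested on simulated data.

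The genes and lists were chosen with earlier results of these data known. Named from each list were at most 2 genes per set with the largest changes among those that passed, or the gene of highest level where none passed, and for TPM4 and CAP1 the 5 genes of highest correlation. Some results that this rule would name are not reported here. WASF2 was named for passing in both sets after its values were seen. Alternatives changed the pseudocount (0.1), the filter, the scaling, the use of shCTL replicate 3, the libraries and the blocking. To check whether replicate numbers pair the libraries, deviations from the group means were correlated over 5877 genes. Libraries with the same number in the library name, which comes from the labels, correlated at 0.101, 0.141, 0.152 and 0.147. Each such pair spans both sets, and the pairs across sets with different numbers correlated at 0.140 to 0.181. Among pairs that span the sets, the exact number therefore added nothing. Every shNYNRIN and shCTL pair that spans the sets also has both names among 1 and 2 or both among 3 and 4. Spanning the sets and sharing that range of names therefore cannot be told apart here. Whether that range stands for a batch was not tested. Libraries with the same number in the title correlated at -0.127, -0.174, -0.160 and -0.149. Each of these pairs lies within a set and joins a library named 1 or 2 to a library named 3 or 4.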

Additional observations from a re-analysis of the deposited data

Results flagged for a closer look

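Each group of 4 libraries of the 10 genes and of 26 named list genes, 72 groups in all, was looked at for a library far from its group, which chance alone finds in about 1 of 20 groups. There were 2. ACTG1 was at 14.95 FPKM in shNYNRIN replicate 2, with the gap to its neighbour making up 0.972 of the range of that group. MYL12A was at 91.2 FPKM in shNYNRIN replicate 3, the lowest of its group, with a gap of 0.903 of the range.

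The effect of the hairpin differed between the sets in limma for TPM3, by a log2 difference, set 2 minus set 1, of -0.31 (adjusted p = 0.00746). This contrast is the same as libraries named 3 or 4 against those named 1 or 2, and TPM3, CAP1 and RAC1 separated fully by that number, TPM3 at 113.7 to 131.7 FPKM against 132.7 to 144 FPKM. For CAP1 it differed by 0.62, with every shNYNRIN library below shCTL in set 1 and above it in set 2, and this difference was not tested because CAP1 was chosen on the contrast.

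Among the named list genes the log2 difference passed in limma with a higher effect in set 2 for CAPG by 1.02, ADD3 by 0.71, LCP1 by 0.59, WIPF1 by 0.49, ABI1 by 0.36, TLN1 by 0.35, CYFIP2 by 0.32, NCKAP1L and DIAPH1 by 0.27 each, MSN by 0.20 and ADD1 by 0.17, with adjusted p from 0.000791 to 0.0428. With a lower effect in set 2 it passed for RAC1 (-1.44), MYH9 (-0.57), ELK4 (-0.54), ACTR2 (-0.22) and ARPC3 (-0.18), with adjusted p from 0.000233 to 0.0247. The differences of ACTR2, ARPC3, NCKAP1L, ADD1, MSN, ABI1 and DIAPH1 each missed the threshold without at least 1 library, those of ADD1 without any 1 of the 6 that could be left out. None of these patterns was tested for a cause.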

How the results depend on the processing

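The calls of TPM3 in set 2 and of its difference between sets were kept in all 13 alternatives run for each. The count over both sets was 41 genes, and it was 82 for genes of at least 10 FPKM, 8 with quantile normalization, 362 with shCTL replicate 3 as deposited, 478 with it plus 0.5 at 10 FPKM, 2304 with the effect free to differ between the sets, and 0 to 2065 without 1 library. Of the 8 genes tested there, 0 passed, against 1 with shCTL replicate 3 as deposited, 2 with it plus 0.5, 3 with the free effect and 0 to 2 without 1 library. The listed genes went with it, at 1, against 2 at 10 FPKM, 0 with quantile normalization, 6 and 8 with shCTL replicate 3, 26 with the free effect and 0 to 15 without 1 library. With a replicate block by library-name number, the count over both sets was 0 genes (2188 by unadjusted p under 0.05 in limma), with 0 listed genes, and 145 genes with shCTL replicate 3 plus 0.5 at 10 FPKM. With a replicate block by the number in the title the same count was 0 genes (1305 by unadjusted p under 0.05 in limma), with 0 listed genes, and in set 1 it was 627 genes, with 0 of the 8 and 3 of the listed genes. Neither block changed another call over both sets.

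In set 1 the count of 2062 was 588 to 2065 without 1 library. The 2 of 8 became 1 with a pseudocount of 0.1 or shCTL replicate 3 as deposited, 4 with quantile normalization and 0 to 2 without 1 library, and the 15 listed genes became 24 with shCTL replicate 3 plus 0.5 and 2 to 15 without 1 library. In set 2 the count of 2631 was 1169 to 2965, the 3 of 8 became 1 to 3 and the 29 listed genes 15 to 36 without 1 library, and 48 with shCTL replicate 3 as deposited. For the difference, 2636 was 1428 to 2588, 1 of 8 was 1 to 2, or 3 with quantile normalization, and 29 listed genes were 14 to 27. Between the sets, 1519 was 556 to 1529, and 3 of 10 was 1 to 5, or 5 at 10 FPKM, 5 with shCTL replicate 3 as deposited and 6 with it plus 0.5.

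Signs turned, mostly near 0. With quantile normalization LCP1 in set 1 had -0.023, and PFN1 had 0.10 for the difference (limma adjusted p = 0.0294) and 0.0097 between the sets. ACTB passed under it for the difference (0.11, limma adjusted p = 0.0119) and between the sets (0.055, limma adjusted p = 0.0191). With upper-quartile scaling, set 1 values were -0.017 for TMSB10, -0.030 for ACTR2 and -0.036 for LCP1, set 2 values -0.015 for CFL1 and -0.0071 for MSN, and the TMSB4X difference 0.0019. With shCTL replicate 3 as deposited, and then plus 0.5, TPM1 in set 2 had 0.042 and 0.016, FHOD1 had 0.051 and 0.038, and the LIMK1 difference was 0.018 as deposited. The authors' deposited table has -0.0073 for TMSB10 in set 1. Without 1 library, set 1 values ranged from -0.040 to 0.081 for TMSB10, -0.035 to 0.050 for ACTR2, -0.017 to 0.020 for LCP1 and -0.012 to 0.0066 for CYFIP2, and set 2 values from -0.037 to 0.011 for TPM1 and -0.0083 to 0.038 for MSN. Differences ranged from -0.032 to 0.040 for ACTB, -0.037 to 0.0099 for TMSB4X and -0.16 to 0.052 for LIMK1. Values between the sets ranged from -0.0011 to 0.025 for CFL1 and -0.41 to 0.0094 for ACTG1, and TPM3 over both sets from -0.11 to 0.065. The cause of these changes was not tested. Without counts per library, how far read depth limits small differences such as these is unknown.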
